A study of Mus musculus with 6 samples.

Results

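The genes described here are 10 members of the TNF superfamily of receptors and ligands that were read out in RAW264.7 macrophages, a mouse macrophage-like cell line. They were chosen by gene symbol from the 49315 genes of the count table, and all 10 were found. They comprise 7 receptors (Tnfrsf1a, Tnfrsf1b, Tnfrsf10b, Fas, Cd40, Tnfrsf9 and Tnfrsf12a) and 3 ligands (Tnfsf9, Tnfsf10 and Tnfsf13b). RNA was sequenced from wild-type (WT) cells exposed for 24 h to 4 μg/mL SKI-II, a compound best known for inhibiting sphingosine kinases, or to the same volume of its vehicle DMSO, with 3 libraries per group. All libraries came from the 1 cell line. The methods refer the treatment to the qPCR assay, which used biological replicates, but the labels do not tie these libraries to separate cultures, so the p-values measure the spread between these libraries, which may be technical. The comparison of SKI-II with DMSO asked how the compound shifted transcript levels in macrophages.

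Ligands of the TNF superfamily are mostly membrane-anchored trimers that are often shed by proteases, and they act by clustering their receptors. Receptors that carry a cytoplasmic death domain, such as TNFR1, Fas and the TRAIL receptor DR5, can recruit FADD and caspase-8 and start cell death, while receptors without one, such as TNFR2, CD40 and 4-1BB, recruit TRAF adaptors and signal through NF-kB and MAP kinases. In macrophages CD40 receives signals from activated T cells, and TNF, made largely by macrophages themselves, acts on both of its receptors.

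The 6 libraries held between 12495957 and 20050677 counts, and 12274 genes had enough reads for a test. Of these, 18.4% were higher and 19.7% lower with SKI-II (adjusted p below 0.05, the quasi-likelihood test of edgeR), so a change was common among all genes. The macrophage markers Cd68, Csf1r, Ptprc and Spi1 were detected in every library and did not pass the test, whereas Cd14 and Fcgr1 rose and Adgre1, Itgam, Lyz2 and Mrc1 fell. The summed level of the 10 macrophage markers was 142255 to 207289 normalized counts in DMSO and 91049 to 129061 in SKI-II. Lyz2 alone went from 109818 ± 35313 to 45951 ± 19783 (SD, n = 3). Without it, a split made after the values were seen, the other 9 summed to 51704 to 56715 and 62645 to 67778, and of these Cd14 went from 7668 to 20424 and Fcgr1 from 909 to 4106 on average. The sum of 8 osteoclast markers was 2223 to 2561 and 1067 to 1121, with Calcr at 0. The T cell markers Cd3g, Cd8a and Trac were at 0 in all libraries. Summed, 7 T cell markers reached 97.3 to 116 normalized counts in DMSO and 181 to 240 in SKI-II, most of it Lck. The B cell markers Cd79a, Cd79b, Ms4a1 and Pax5 summed to between 0 and 3.96 in DMSO and between 4.07 and 5.59 in SKI-II, most of it Cd79a, and the 5 fibroblast markers at most 17.7 and 23.6. The part of these marker levels in the results below was not tested. In bulk RNA, fewer cells of a kind and less RNA per cell cannot be told apart.

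Among the 10 members, Cd40 and Tnfsf9 rose with SKI-II and none fell. A further 7 did not pass the test, and Tnfsf10 had too few reads to be tested. The 2 genes that rose are 22.2% of the 9 tested, beside 18.4% of all tested genes called higher, so their number was near the background. The 0 of 9 called lower stand beside 19.7% of all tested genes. At an unadjusted p below 0.05, Fas was the 1 member lower, and it was also the 1 member that DESeq2 called lower. The median log2 fold change of the 9 tested members was 0.16, against 0.00 for all tested genes. The groups did not overlap for 3 members (Cd40, Tnfsf9 and Tnfrsf12a), all with the SKI-II libraries above, and for 0 with them below. Of all tested genes, 24.8% did not overlap upwards and 25.5% downwards, 50.3% in all. To normalize, each count was divided by its library's TMM-scaled size and brought to the mean size of the 6 libraries, and group values below are means with their SD over 3 libraries.

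**Figure D1:**
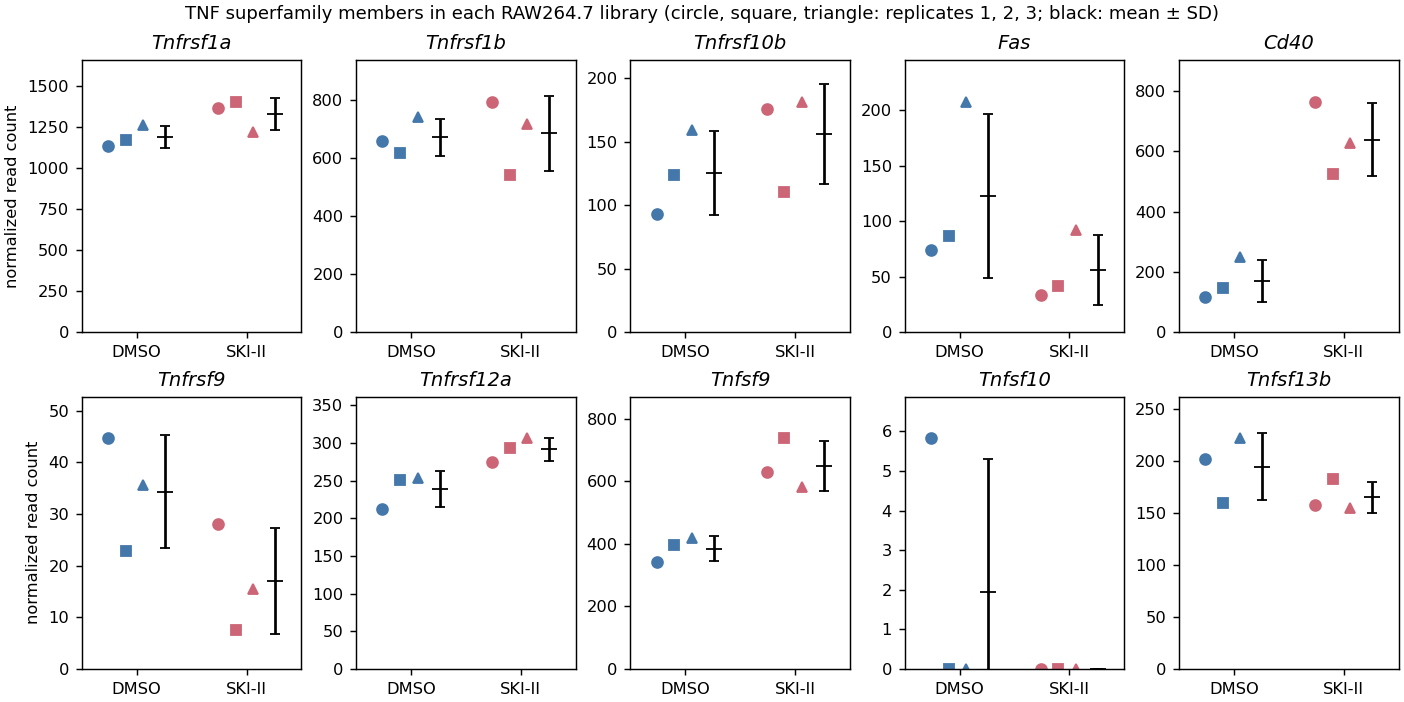
Normalized read count (vertical axis, each panel from 0) of the 10 members in the 3 DMSO libraries and the 3 SKI-II libraries, with symbols for replicates 1 to 3 and the mean with its SD in black. The groups stand apart in the panels of Cd40, Tnfsf9 and Tnfrsf12a, and the point of DMSO replicate 3 lies well above the other DMSO points for Fas.

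Cd40 showed the largest fitted change of the 9 tested members. It encodes the costimulatory receptor through which macrophages and B cells receive CD40 ligand from T cells, and lies on chromosome 2 from 165055627 to 165072948 (plus strand). All positions are those of genes in the GENCODE M21 annotation of GRCm38. Its raw counts were 119, 115 and 251 in DMSO replicates 1, 2 and 3 and 683, 548 and 771 in SKI-II replicates 1, 2 and 3. Every SKI-II library held more than every DMSO library, and DMSO replicate 3 was the highest of its group. On the normalized scale the level rose from 170 ± 69.8 (SD, n = 3) to 638 ± 121 (SD, n = 3), a 3.75-fold difference and a log2 fold change of 1.91 (SE 0.27, adjusted p = 5.45e-04 from the edgeR fit over all genes). The 95% interval of the log2 fold change, which like all intervals given here is not adjusted for the number of genes, ran from 1.31 to 2.50. It was the 317th highest fitted value among the 12274 tested genes. With any 1 library left out the log2 fold change stayed between 1.67 and 2.29 and passed the test each time. Cd40 was also the 1 member called when a log2 fold change above 1 was required, a rule that 8.28% of tested genes met upwards. None of the members was below -1 by that rule, which 7.44% of tested genes met downwards.

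Its ligand was not seen in these cells. Cd40lg, which encodes the CD40 ligand of activated T cells, had 0 counts in all 6 libraries, which allows a level of up to 0.0661 CPM in DMSO and 0.0590 CPM in SKI-II (3 counts over the 3 libraries of a group, counting error only). The rise of Cd40 was therefore a rise of the receptor transcript with no ligand transcript detectable at this depth.

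Tnfsf9 encodes 4-1BB ligand, a costimulatory ligand of antigen-presenting cells, and lies on chromosome 17 from 57105325 to 57107757 (plus strand). Its raw counts were 351, 313 and 423 in DMSO and 564, 774 and 713 in SKI-II, in the order of the replicates. The groups did not overlap. The normalized level rose from 385 ± 40.0 (SD, n = 3) to 650 ± 80.5 (SD, n = 3), 1.69-fold, with a log2 fold change of 0.76 (SE 0.15, 95% interval 0.42 to 1.09, adjusted p = 0.00344 in edgeR's test). The call held with each library left out, at 0.66 to 0.83. An exon of Tnfsf9 overlaps Gm11110 on the other strand, and no source used here says whether the counting used strand, so reads of the pair may not be fully separated. Gm11110, chosen for this overlap, had a log2 fold change of 0.81 (SE 0.19, adjusted p = 0.00888).

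The receptor of this ligand, 4-1BB, is encoded by Tnfrsf9 on chromosome 4 from 150914562 to 150946102 (plus strand). It is best known as a costimulatory receptor of T cells. Its counts were low, with 46, 18 and 36 in DMSO and 25, 8 and 19 in SKI-II. The groups overlapped, since SKI-II replicate 1 lay above DMSO replicate 2. The normalized means were 34.4 ± 11.0 and 17.0 ± 10.3 (SD, n = 3), and the log2 fold change of -1.04 (SE 0.48, 95% interval -2.11 to 0.03) did not pass the test (adjusted p = 0.113). Without SKI-II replicate 1 it was -1.56 and passed, with an adjusted p of 0.0488. Without SKI-II replicate 2 it was -0.69 and did not pass (adjusted p = 0.316). With the replicate number as a block it was -1.08 and passed (adjusted p = 0.0336), though the numbers were not taken as pairs. Set against each other per length, Tnfsf9 stood 25.9 ± 10.3 times above Tnfrsf9 in DMSO and 110 ± 82.8 times in SKI-II (SD, n = 3). By library the ratio was 16.1, 36.7 and 24.8 with DMSO against 47.6, 204 and 79.2 with SKI-II, with no overlap. In an exact permutation test, two-sided, p was 0.10, the smallest that 3 libraries against 3 can give. The mean ratio in SKI-II was 63.4 without replicate 2. This ratio and those below were chosen after the values were seen.

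Of the member receptors with a death domain, none passed the test. Tnfrsf1a, which encodes TNFR1, the death-domain receptor for TNF, had the highest level of the members in DMSO, shared in SKI-II with Tnfsf9, and lies on chromosome 6 from 125349362 to 125362484 (plus strand). Its raw counts were 1170, 929 and 1276 in DMSO and 1220, 1473 and 1495 in SKI-II. After scaling the groups overlapped, with SKI-II replicate 3 at 1218 normalized counts, below the 1263 of DMSO replicate 3. The means were 1191 ± 65.3 and 1330 ± 98.7 (SD, n = 3), a log2 fold change of 0.16 (SE 0.12, adjusted p = 0.323) with a 95% interval of -0.11 to 0.42. A change as large as that of Tnfsf9 lay outside this interval.

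Tnfrsf10b encodes the mouse TRAIL receptor that can signal death, known in human as DR5, and lies on chromosome 14 from 69767472 to 69784411 (plus strand). Its DMSO libraries held 96, 98 and 161 reads and its SKI-II libraries 157, 116 and 223. The groups overlapped, and the interval of its log2 fold change was wide, from -0.29 to 0.92 around 0.31 (SE 0.27, adjusted p = 0.393), with means of 125 ± 33.1 and 156 ± 39.4 normalized counts (SD, n = 3). Ddit3, which encodes the stress factor CHOP, a known inducer of this receptor in other cells, was looked up for that reason. It had a log2 fold change of 1.67 (SE 0.36, adjusted p = 0.00552), from 2484 ± 1174 to 7924 ± 2819 normalized counts (SD, n = 3).

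Fas encodes the receptor for Fas ligand, which starts apoptosis through FADD and caspase-8, and lies on chromosome 19 from 34290666 to 34327772 (plus strand). Its raw counts were 76, 69 and 210 in DMSO and 30, 44 and 113 in SKI-II. Replicate 3 was the highest library in both groups, and SKI-II replicate 3, at 92.1 normalized counts, lay above DMSO replicates 1 and 2, at 73.8 and 87.2. The means were 123 ± 73.9 and 55.9 ± 31.6 normalized counts (SD, n = 3), a log2 fold change of -1.12 (SE 0.47, 95% interval -2.17 to -0.07, adjusted p = 0.0867 in edgeR's test across all genes). The side of the threshold depended on single libraries, on the filter, on the tool and on the replicate block. The log2 fold change was -1.70 without SKI-II replicate 3 (adjusted p = 0.0196), -1.40 without DMSO replicate 1 (adjusted p = 0.0339) and -0.51 without DMSO replicate 3 (adjusted p = 0.380), and DESeq2 gave -1.13 with an adjusted p of 0.0408. With no filter on low counts the adjusted p was 5.91e-04 at -1.12. With the replicate number as a block the log2 fold change was -1.12 (SE 0.22, adjusted p = 0.00350), though the numbers were not taken as pairs. Fasl, which encodes Fas ligand, was at 0 in all 6 libraries.

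The receptors that signal through TRAF adaptors, other than Cd40 and Tnfrsf9, differed by less. Tnfrsf1b encodes TNFR2, the second receptor for TNF, and lies on chromosome 4 from 145213463 to 145246870 (minus strand). Its counts of 678, 489 and 750 in DMSO and 711, 570 and 882 in SKI-II gave normalized means of 673 ± 63.6 and 686 ± 129 (SD, n = 3). The groups overlapped, and the log2 fold change was 0.03 (SE 0.16, 95% interval -0.34 to 0.39, adjusted p = 0.915). Its sign turned with single libraries left out, over a range of -0.10 to 0.17. The level of Tnfrsf1a per length stood 2.62 ± 0.160 times above that of Tnfrsf1b in DMSO and 2.94 ± 0.748 times in SKI-II (SD, n = 3), with overlapping libraries (p = 0.9, exact permutation test, two-sided).

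Tnfrsf12a encodes Fn14, the receptor for TWEAK, and lies on chromosome 17 from 23675445 to 23677468 (minus strand). Its reads numbered 218, 199 and 256 with DMSO and 246, 307 and 376 with SKI-II. Every SKI-II library, at 275, 293 and 306 normalized counts, lay above every DMSO library, at 212, 251 and 254. The gap was small beside the fitted spread, so that the log2 fold change of 0.29 (SE 0.16, 95% interval -0.06 to 0.64) did not pass the test (adjusted p = 0.178). Tnfsf12, which encodes TWEAK, did not pass either, at 281 ± 38.2 and 326 ± 53.4 normalized counts (SD, n = 3) and a log2 fold change of 0.21 (SE 0.18, adjusted p = 0.385). It shares exons with Tnfsfm13, a readthrough with its neighbour, so its reads could have been split.

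The last pair of ligands stayed under the threshold or could not be tested. Tnfsf13b encodes BAFF, a survival factor that myeloid cells make for B cells, and lies on chromosome 8 from 10006467 to 10039072 (plus strand). Its counts were 208, 126 and 224 in DMSO and 141, 191 and 190 in SKI-II. The groups overlapped, with means of 194 ± 32.0 and 165 ± 15.1 normalized counts (SD, n = 3) and a log2 fold change of -0.24 (SE 0.19, 95% interval -0.67 to 0.19, adjusted p = 0.363). Its receptors, best known from B cells, were scarce. Tnfrsf13c, for the BAFF receptor, had 3 counts over the DMSO libraries and 1 over the SKI-II libraries, Tnfrsf13b, for TACI, had 4 and 4, and Tnfrsf17, for BCMA, had 15 (9, 3 and 3) and 0. For Tnfrsf17 that is at least 5.60-fold lower with SKI-II (3.52-fold without DMSO replicate 1 and 3.43-fold without SKI-II replicate 3). The limit of a count of 0 was taken as 3 counts over the group. The DMSO counts were taken as exact, so their counting error is left out. Tnfrsf17 was too low for the main test, and DESeq2 kept it with an adjusted p of 0.0257.

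Tnfsf10 encodes TRAIL, the ligand of Tnfrsf10b, and lies on chromosome 3 from 27317028 to 27342427 (plus strand). It had 6 counts in DMSO replicate 1 and 0 in each of the other 5 libraries. By the same limit, with the DMSO counts again taken as exact, it was at least 2.24-fold lower with SKI-II. That bound rests on DMSO replicate 1 alone, since without this library both groups were at 0. With no filter on low counts, edgeR's test gave Tnfsf10 an adjusted p of 0.117, which did not pass. TRAIL itself was therefore at or near the limit of detection in both groups, while its receptor was read with 96 to 223 counts a library.

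**Figure D2:**
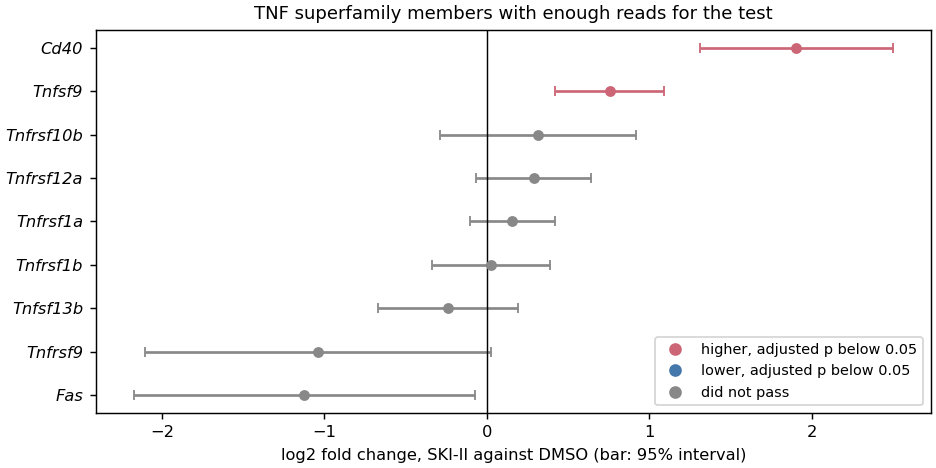
Fitted log2 fold change of SKI-II against DMSO (horizontal axis) for the 9 tested members, with bars for the 95% interval and colours for the result of edgeR's test at an adjusted p below 0.05. Cd40 at 1.91 and Tnfsf9 at 0.76 are the members that passed, and the bars of Fas and Tnfrsf9 are the widest.

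Levels of different genes were compared only as normalized counts per kilobase of merged exons. In DMSO the order was Tnfrsf1a (460 ± 25.2), Tnfsf9 (299 ± 31.0), Tnfrsf1b (176 ± 16.7), Tnfrsf12a (124 ± 12.2), Fas (59.6 ± 35.8), Cd40 (49.9 ± 20.5), Tnfsf13b (28.3 ± 4.66), Tnfrsf10b (23.0 ± 6.08), Tnfrsf9 (12.6 ± 4.05) and Tnfsf10 (0.369 ± 0.639), each with its SD over 3 libraries. Of these neighbours, Fas and Cd40 overlapped between libraries, as did Tnfsf13b and Tnfrsf10b, and the others were apart. In SKI-II the order was Tnfrsf1a (513 ± 38.1), Tnfsf9 (504 ± 62.4), Cd40 (187 ± 35.5), Tnfrsf1b (180 ± 33.8), Tnfrsf12a (151 ± 8.07), Tnfrsf10b (28.6 ± 7.22), Fas (27.1 ± 15.3), Tnfsf13b (24.0 ± 2.19) and Tnfrsf9 (6.26 ± 3.77), with Tnfsf10 at 0. The libraries of Cd40 thus overlapped those of Fas in DMSO and those of Tnfrsf1b, the TNFR2 gene, in SKI-II. The libraries of Tnfrsf1a and Tnfsf9, of Cd40, Tnfrsf1b and Tnfrsf12a with each other, and of Tnfrsf10b, Fas and Tnfsf13b with each other, overlapped in SKI-II, so the order within these sets was not resolved.

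As shares of the members' summed level per kilobase, the make-up of the set shifted toward Cd40 and Tnfsf9. The share of Cd40 was 3.96% ± 1.16 in DMSO and 11.6% ± 2.02 in SKI-II, and that of Tnfsf9 was 24.3% ± 1.29 and 31.1% ± 3.46 (SD, n = 3). The shares of Tnfrsf1a were 37.5% ± 2.08 and 31.6% ± 1.53 (SD, n = 3), with no overlap, although its own level did not pass the test. The shares of Tnfrsf1b (14.3% and 11.1%), Fas (4.67% and 1.70%), Tnfrsf9 (1.04% and 0.384%) and Tnfsf13b (2.30% and 1.48%) were also lower without overlap. Without SKI-II replicate 3 the share of Fas in SKI-II was 1.11%, and without DMSO replicate 3 its share in DMSO was 3.38%. The gap for Fas was narrow, with DMSO replicate 1 at 3.20% and SKI-II replicate 3 at 2.87%. Shares within a library add up to a whole, so the share of one gene falls where that of another rises. Per length, Cd40 stood at 0.107 ± 0.0378 of Tnfrsf1a in DMSO and 0.367 ± 0.0747 in SKI-II, and at 0.894 ± 0.150 and 8.48 ± 4.89 times Fas (SD, n = 3), both without overlap (p = 0.10 for each in the exact permutation test, two-sided, the smallest possible).

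**Figure D3:**
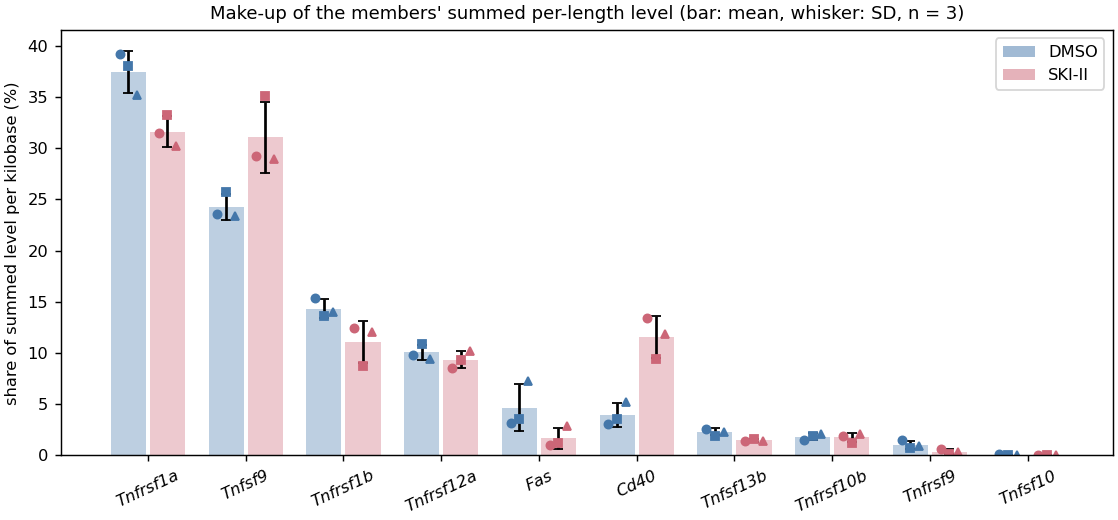
Share of each member in the summed level per kilobase of the 10 members (vertical axis, in percent), with bars for the group mean, whiskers for the SD and points for the 3 libraries of each group. The points of Cd40 and Tnfsf9 lie higher in every SKI-II library than in any DMSO library, and those of Tnfrsf1a, Tnfrsf1b, Fas, Tnfrsf9 and Tnfsf13b lie lower.

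The starts of the genes were read for motifs as a description. The set of RefSeq (GRCm38.p6) windows used here, 300 bases around the start with 250 before and 50 after, covered 7 of the 10 members. It held none for Cd40, Tnfrsf10b and Tnfsf9, which does not show that RefSeq lacks these genes. A search on both strands for the AP-1 letters TGANTCA found them in a window of 3 of the 7 genes, Fas, Tnfrsf9 and Tnfsf13b, whose windows are shown for that reason with the matches in capitals. Of the 27018 genes with a window, 8.98% hold these letters in at least 1 window, and of all 32841 windows 7.81% do. The Tnfrsf9 window also holds 2 overlapping matches to the NF-kB consensus, which 9.55% of genes hold (8.46% of all windows). The CRE letters TGACGTCA were found in 0 of the 7 genes (2.03% of genes and 1.79% of all windows) and the antioxidant response element core TGACNNNGC in 2 (14.0% of genes and 12.4% of all windows). The motifs were chosen with the values of the members known, and nothing about a direction of change was tested with them. A match is only a run of letters and was not shown to be bound.

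The 3 windows read 5′ to 3′ on the plus strand, at chr19:34290409-34290708 for Fas, chr4:150927749-150928048 for Tnfrsf9 (the second of 2 starts) and chr8:10006217-10006516 for Tnfsf13b (the first of 2 starts whose windows overlap and share the match). The AP-1 match begins at position -211 from the start base in Fas, at -15 in Tnfrsf9, where the NF-kB run begins at -43, and at 39 in Tnfsf13b.
Fas: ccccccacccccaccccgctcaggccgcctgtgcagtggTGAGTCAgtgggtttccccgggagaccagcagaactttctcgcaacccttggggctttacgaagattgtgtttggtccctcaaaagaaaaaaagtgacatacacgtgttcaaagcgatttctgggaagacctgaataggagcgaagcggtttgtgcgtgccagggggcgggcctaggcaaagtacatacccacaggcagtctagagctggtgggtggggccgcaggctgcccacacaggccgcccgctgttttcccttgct
Tnfrsf9: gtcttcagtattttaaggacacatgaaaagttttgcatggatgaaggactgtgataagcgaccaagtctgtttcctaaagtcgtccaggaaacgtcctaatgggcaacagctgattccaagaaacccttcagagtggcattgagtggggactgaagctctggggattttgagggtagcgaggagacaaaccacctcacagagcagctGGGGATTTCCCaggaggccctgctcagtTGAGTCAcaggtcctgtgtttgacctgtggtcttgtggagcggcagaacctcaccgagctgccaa
Tnfsf13b: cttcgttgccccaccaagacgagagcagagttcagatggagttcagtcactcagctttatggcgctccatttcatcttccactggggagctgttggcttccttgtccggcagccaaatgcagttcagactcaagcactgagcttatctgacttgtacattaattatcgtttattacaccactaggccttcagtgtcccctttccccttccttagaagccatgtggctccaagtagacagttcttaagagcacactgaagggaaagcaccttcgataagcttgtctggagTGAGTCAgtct

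Of the ligands that act on the members, TNF and lymphotoxin alpha, the ligands of Tnfrsf1a and Tnfrsf1b, both rose. Tnf was counted 183, 82 and 123 times with DMSO and 233, 368 and 289 times with SKI-II, without overlap, and went from 134 ± 38.6 to 282 ± 60.8 normalized counts (SD, n = 3), a log2 fold change of 1.07 (SE 0.24, adjusted p = 0.00722). Lta was counted 7, 7 and 14 times with DMSO and 42, 41 and 71 times with SKI-II, a log2 fold change of 2.27 (SE 0.39, adjusted p = 0.00146). Ltb, whose product joins lymphotoxin alpha in a heterotrimer that acts on the LTBR receptor, fell from 97, 69 and 104 counts to 20, 38 and 64, a log2 fold change of -1.34 (SE 0.32, adjusted p = 0.00867). All 3 calls held with each library left out. The transcripts of both TNF ligands were thus higher while those of both TNF receptors did not pass the test.

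The wider set of 15 other ligands had 5 tested genes, of which 2 were higher (Tnf and Lta), 1 lower (Ltb) and 2 did not pass, with a median log2 fold change of 0.21. That is 40% and 20% of only 5 genes, beside 18.4% and 19.7% of all tested genes. Tnfsf11, which encodes RANKL, the osteoclast differentiation ligand, was at 0 in all libraries, as were 4 others of the list. Among those under the filter, Tnfsf14, for the ligand LIGHT, was read 10, 6 and 16 times with DMSO and 0, 1 and 0 times with SKI-II, a ratio of 0.0279 with an exact 95% counting interval of 6.86e-04 to 0.167. The ratio was 0.0456 without SKI-II replicate 3, and without SKI-II replicate 2 the gene was at least 7.99-fold lower. DESeq2 kept it with an adjusted p of 0.00352. Tnfsf8, for CD30 ligand, had 11, 1 and 2 counts in DMSO and 0 in SKI-II, at least 5.22-fold lower with the DMSO counts taken as exact. That bound was 3.20-fold without SKI-II replicate 3, and without DMSO replicate 1 both groups were at or under 3 counts. DESeq2 gave Tnfsf8 an adjusted p of 0.0505, which did not pass, and edgeR's test with no filter on low counts gave 0.00771, which passed. Tnfsf18, for GITR ligand, went the other way, with 4, 1 and 2 reads in DMSO and 8, 7 and 11 in SKI-II, and did not pass in DESeq2 (adjusted p = 0.191). These 3 genes were named after their values were seen.

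Of 21 other receptors 9 were tested, and 3 were higher, 2 lower and 4 did not pass, with a median log2 fold change of 0.36. That is 33.3% and 22.2% of 9 genes, beside 18.4% and 19.7% of all tested genes. The 3 that rose are the neighbours Tnfrsf23, Tnfrsf26 and Tnfrsf22 on chromosome 7, a cluster that in mouse includes decoy receptors for TRAIL, the ligand of the member Tnfrsf10b. Tnfrsf23 went from 604 ± 105 to 1646 ± 255 normalized counts (SD, n = 3), a log2 fold change of 1.44 (SE 0.16, adjusted p = 1.61e-04), Tnfrsf26 had one of 0.82 (SE 0.19, adjusted p = 0.00850) and Tnfrsf22 one of 0.68 (SE 0.16, adjusted p = 0.00882). These genes resemble each other closely, so their reads could have been split, and Tnfrsf23 and Tnfrsf26 overlap the antisense gene E230032D23Rik. Per length, Tnfrsf23 stood 6.87 ± 1.91 times above Tnfrsf10b in DMSO and 15.0 ± 3.46 times in SKI-II (SD, n = 3), without overlap (p = 0.10, exact permutation test, two-sided, the smallest possible). The calls of the 2 lower receptors depended on single libraries and on the filter, since with no filter on low counts the adjusted p was 0.0682 for Tnfrsf11a and 0.107 for Tnfrsf14. Tnfrsf11a, which encodes RANK, the receptor for RANKL, had a log2 fold change of -0.38 (SE 0.12, adjusted p = 0.0312) and lost its call without DMSO replicate 1 or 2 or SKI-II replicate 1 or 2, at an adjusted p of up to 0.103. Tnfrsf14, for HVEM, the receptor of LIGHT, had one of -0.94 (SE 0.32, adjusted p = 0.0427), and lost its call with any 1 of the 6 libraries left out, at an adjusted p of up to 0.120, and with DESeq2 (adjusted p = 0.103).

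**Figure D4:**
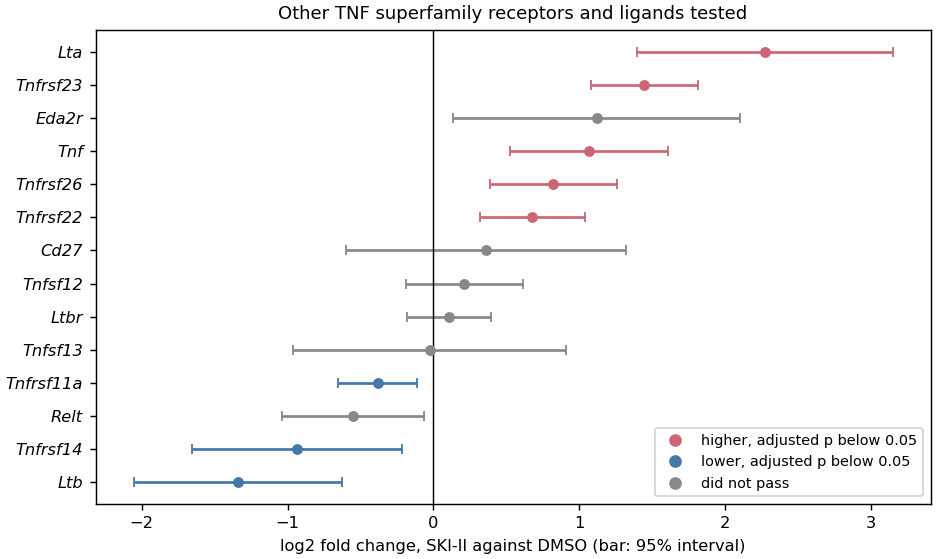
Fitted log2 fold change of SKI-II against DMSO (horizontal axis) with its 95% interval for the 14 other receptors and ligands that were tested, coloured by the result of edgeR's test. Lta at 2.27 and Tnfrsf23 at 1.44 are at the top, and Ltb at -1.34 is at the bottom.

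The components just below these receptors moved in both directions. Of 40 listed adaptors, ubiquitin enzymes, kinases, caspases, NF-kB subunits and sheddases, all 40 were tested, with 8 higher, 8 lower and 24 that did not pass. That is 20% in each direction, beside 18.4% and 19.7% of all tested genes, and the median log2 fold change was 0.08. The number of changed genes in this list was thus near the background. Casp8, the initiator caspase, had a log2 fold change of 0.64 (not called without DMSO replicate 2, adjusted p = 0.0634), Ripk1, the kinase shared by survival and death signals, one of 0.72, Tradd, the adaptor of TNFR1, one of 0.67, and Mlkl, the executioner of necroptosis, one of 0.79 (SE 0.13, adjusted p = 0.00124). In this list the rule names Map3k5, Otulin, Mlkl, Traf1, Birc3, Tnfaip3, Relb and Adam17, and the others were added after their values were seen. Fadd, Ripk3, Cflar and Bid, which also act in cell death, did not pass. Map3k5, which encodes the stress kinase ASK1, rose from 577 ± 22.8 to 1448 ± 256 normalized counts (SD, n = 3), a log2 fold change of 1.33 (SE 0.15, adjusted p = 1.37e-04).

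Among the regulators of ubiquitin chains at the receptor, Birc3, for the ubiquitin ligase cIAP2, fell from 876 ± 53.4 to 396 ± 47.3 normalized counts (SD, n = 3), a log2 fold change of -1.14 (SE 0.14, adjusted p = 2.08e-04). Tnfaip3, for the NF-kB inhibitor A20, had one of -1.01 (SE 0.30, adjusted p = 0.0256), a call lost without DMSO replicate 2 or 3 or SKI-II replicate 2 (adjusted p up to 0.0868). The linear chain assembly genes Sharpin (-0.65) and Rnf31 (-0.40, lost without DMSO replicate 2 or 3 or SKI-II replicate 2 or 3, adjusted p up to 0.187) fell, and Rbck1, the other gene of that complex, was at -0.13 and did not pass (adjusted p = 0.482). Otulin, which removes linear chains, rose by 0.81 on the log2 scale (SE 0.14, adjusted p = 0.00187), and Cyld, which also removes them, was at -0.26 and did not pass (adjusted p = 0.201). Of the TRAF genes, which bind the cytoplasmic tail of receptors such as CD40, Traf1 rose (0.79, SE 0.20, adjusted p = 0.0104, but 0.0557 without DMSO replicate 2), and Traf2, Traf3, Traf5 and Traf6 did not pass. Tab2 rose (0.45) and Tab1 fell (-0.58), both partners of the kinase TAK1. The noncanonical NF-kB subunits, which CD40 and BAFF receptors engage, were both lower. Relb was at -0.81 (SE 0.24, adjusted p = 0.0241) and lost its call without DMSO replicate 3 or SKI-II replicate 1 or 2 (adjusted p up to 0.0881). Nfkb2 was at -0.50 and lost its call without DMSO replicate 2 or 3 or SKI-II replicate 2 (adjusted p up to 0.104). The canonical subunits Rela and Nfkb1 did not pass. Adam17, the protease that sheds TNF and its receptors, fell from 3835 ± 338 to 2253 ± 226 normalized counts (SD, n = 3), a log2 fold change of -0.77 (SE 0.13, adjusted p = 0.00128). Adam17 overlaps Iah1, Nfkb2 overlaps Psd and Ripk1 overlaps Serpinb6a on the opposite strand, so their reads may not be fully separated. On the same strand, exons of Rnf31 overlap Irf9 and those of Ripk1 overlap Gm17084, which counting by strand would not separate.

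**Figure D5:**
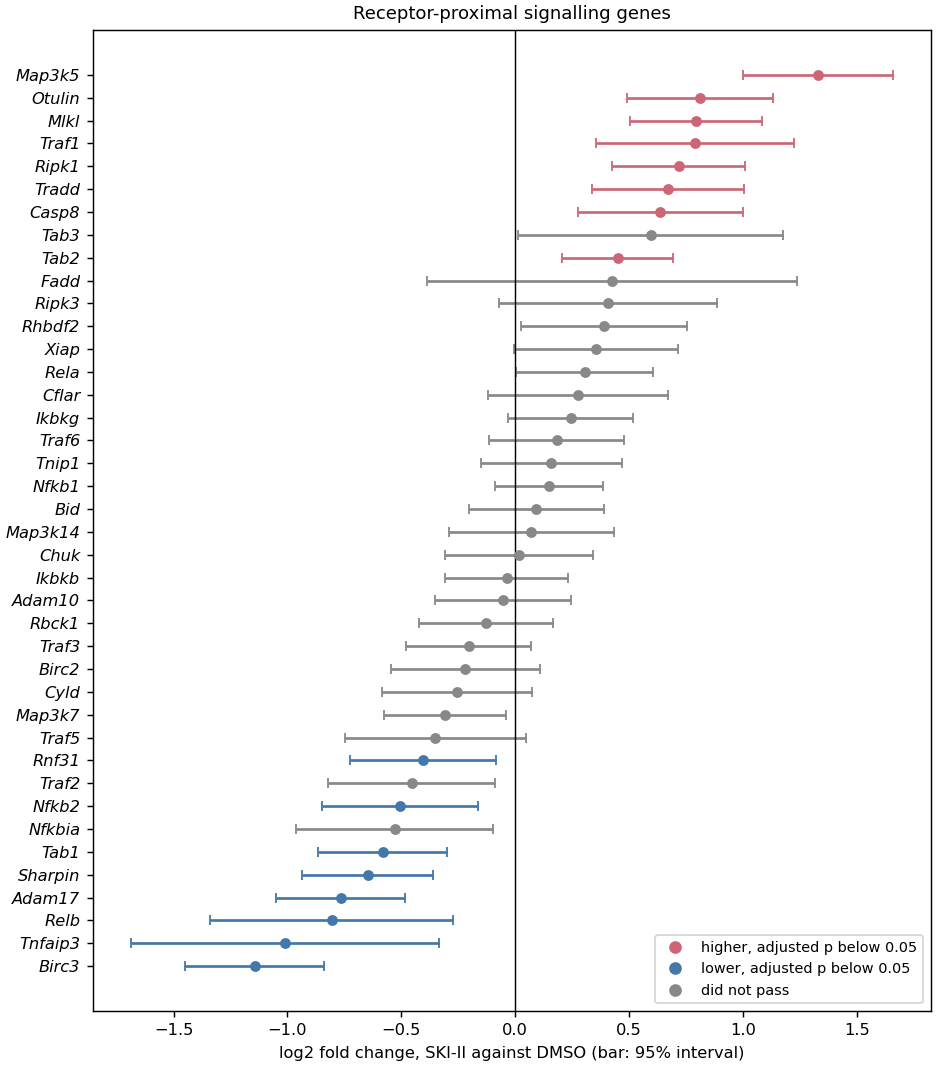
Fitted log2 fold change of SKI-II against DMSO (horizontal axis) with its 95% interval for the 40 genes of receptor-proximal signalling, ordered by value and coloured by the result of edgeR's test. The 8 genes that rose run from Map3k5 at 1.33 to Tab2 at 0.45, and the 8 that fell from Birc3 at -1.14 to Rnf31 at -0.40.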

How the data were processed

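Poly(A) RNA of 6 libraries of RAW264.7 cells was sequenced, 3 with SKI-II and 3 with DMSO, as grouped by the sample labels. Per the submitters' processing notes, reads were trimmed with Trimmomatic 0.36, aligned with STAR 2.5.2b and counted with featureCounts (Subread 1.5.2), and the authors compared the groups with DESeq2. The values used here are the authors' raw counts per Ensembl gene as deposited, without normalization. The build, annotation release and strand setting used by the authors: not given in the sources used here. Names, positions and merged exon lengths were taken from GENCODE M21 (GRCm38), which named 48970 of 49315 identifiers.

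The counts were tested in edgeR 4.0.16 (R 4.3.3) with its quasi-likelihood F test, TMM scaling, its expression filter by group (minimum count 10, minimum total 15) and p-values adjusted by Benjamini-Hochberg over the 12274 genes that passed. A gene was called at an adjusted p below 0.05. Alternatives were DESeq2 1.42.0, limma-voom (limma 3.58.1), RLE scaling, library size alone, no filter, at least 10 counts in every library, a prior count of 2 in place of 0.125, a log2 fold change beyond 1, the replicate number as a block, and each library left out in turn. Without a filter more genes with few reads are tested, and the prior count sets the fitted value of a gene with no reads in a group. For such genes 3 counts over a group were taken as the limit of a count of 0, and ratios resting on 1 to 3 counts have exact 95% (Clopper-Pearson) intervals. Such limits and intervals describe counting error alone. A fold bound takes the counts of the other group as exact, so their counting error is left out of it. Ratios of 2 genes were compared by an exact permutation test over libraries. The scripts were tested on simulated data. Replicates of a group differed by more than sampling noise (chi-square per degree of freedom 15.4 to 58.1), so each library counted as 1 replicate. Figures were drawn with matplotlib 3.10.9.

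The members, the lists and the rule for named genes were chosen with earlier results of these data known. The rule takes the 10 members, up to 4 called genes at either end of the log2 fold change in each of 3 lists (other receptors, other ligands, receptor-proximal signalling), and the cognate ligands and receptors of the members with Tnfsf11 and Tnfrsf11a. Genes named outside it were chosen after their values were seen. These include the neighbours that overlap a named gene, the genes of the signalling list that did not pass, and the markers. A marker of the B cell list is not reported here.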

Additional observations from a re-analysis of the deposited data

How the results depend on the processing

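Of the log2 fold changes of the 9 tested members under the alternatives other than the fold change limit, 114 kept their direction and their side of the threshold, 7 passed it where the main value had not, 4 changed sign and 0 lost a call. The sign changes were all of Tnfrsf1b with a library left out (-0.10 to 0.17). Fas passed with no filter (-1.12, adjusted p = 5.91e-04), with DESeq2 (-1.13, adjusted p = 0.0408) and with the replicate block (-1.12, adjusted p = 0.00350), and ranged from -1.70 to -0.51 with a library left out. Tnfrsf9 passed with the replicate block (-1.08, adjusted p = 0.0336) and ranged from -1.56 to -0.69 with a library left out. The cause was not tested. The 0 members called lower became 1 with no filter, 1 with DESeq2 and 2 with the replicate block, and 0 to 1 with a library left out. Requiring a log2 fold change beyond 1 left 1 member higher, since Tnfsf9 lost its call, 3 higher and 1 lower of the other receptors and ligands (5 and 3 before), and 1 higher and 2 lower of the signalling list (8 and 8 before). With a library left out, the other receptors and ligands called lower numbered 1 (without DMSO replicate 1) to 3. The signalling genes called lower numbered 4 (without DMSO replicate 3) to 8, with 5 without DMSO replicate 2 or SKI-II replicate 2, and those called higher 6 to 10. The replicate numbers were not taken as pairing the libraries, since the deviations of same-numbered libraries correlated at 0.24, 0.02 and 0.45 and DMSO replicate 1 correlated best with SKI-II replicate 2 (0.28). With the number as a block, all tested genes called went from 2255 higher and 2413 lower to 2765 and 2819, and 11 signalling genes were called in each direction. Depth limited what could be said of Tnfsf10 and the ligands at or near 0.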
